A study of Mus musculus with 6 samples.

Results

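DNA replication and nucleotide supply genes were followed across all 6 arrays of a study of mouse heart cells in culture. The list names 43 genes of the replication machinery and of deoxynucleotide supply. It was taken by gene symbol from the platform's probe annotation, with the probe set of highest mean kept for each symbol. In all, 42 of the 43 genes had a named probe set among the 19505 named genes, each of them exactly 1, and Mcm7 was not analysed here. The genes fall into 10 role groups, from origin licensing to S phase entry.

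Cardiac fibroblasts (CF), which make the matrix of the heart, and its beating muscle cells, the cardiomyocytes (CM), were cultured for 48 h with secretome from Ccrl2+ macrophages, secretome from Ccrl2- macrophages, or phosphate-buffered saline (PBS), which the titles call sham. All mice were C57BL/6N, 15 to 16 weeks old, with no other allele named. The macrophages came from 6 pooled wild-type hearts taken 1 week after transverse aortic constriction, a surgical pressure overload, and were sorted by Ccrl2, a chemerin-binding receptor-like protein. The treatment is taken from the source labels (secretome), although the protocols describe a co-culture. Every group had 1 array. Differences therefore have no replicate check, and no test was made. Values are log2 probe set values, where a difference of 1 is 2-fold. A gene was counted in a comparison when the higher of its 2 values reached a floor of 6.55, which is the median over the named probe sets of all arrays.

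Before a cell divides, it copies its genome once. The origin recognition complex, Cdc6 and Cdt1 load the ring-shaped MCM helicase onto DNA in G1. Cdc45 and the GINS complex turn the ring into an active helicase at S phase entry, primase and polymerase alpha start each strand, and polymerases epsilon and delta extend it on the sliding clamp Pcna. Ribonucleotide reductase, thymidylate synthase and their neighbours supply the deoxynucleotides. Many of these genes are switched on together in late G1 by E2F transcription factors, which are released from the retinoblastoma protein once cyclin kinases are active. Adult cardiomyocytes have largely left the cell cycle, whereas cardiac fibroblasts divide in culture.

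Promoter sequence is shown first, and its part in the values that follow was not tested. RefSeq promoter windows of build GRCm38.p6, from 250 bases before to 50 bases after a gene's start, were matched by symbol for 34 of the 42 genes. They were searched on both strands for the E2F words TTTCCCGC, TTTCGCGC, TTTGCCGC and TTTGGCGC. At least 1 word stood in the windows of 13 of the 34 genes (38.2%), against 2.6% of the 27025 genes with a window. The 13 genes were Mcm3, Mcm5, Mcm6, Orc1, Cdc6, Cdt1, Gins3, Pola1, Pole2, Pold1, Rfc3, Lig1 and Uhrf1. A match is a description of letters, not of a bound site. The stretches below come from the windows of genes of several roles, from the ring to the clamp loader, with E2F words in capitals. In Mcm6 and Mcm5 words of both strands overlap.
Mcm6, chr1:128359725-128359835, minus strand: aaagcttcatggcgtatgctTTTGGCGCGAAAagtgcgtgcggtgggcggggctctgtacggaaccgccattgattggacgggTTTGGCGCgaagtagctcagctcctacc
Mcm5, chr8:75109336-75109387, plus strand: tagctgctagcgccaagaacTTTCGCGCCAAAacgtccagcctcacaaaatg
Cdc6, chr11:98907993-98908040, plus strand: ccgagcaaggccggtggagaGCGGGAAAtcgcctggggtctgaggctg
Gins3, chr8:95633498-95633545, plus strand: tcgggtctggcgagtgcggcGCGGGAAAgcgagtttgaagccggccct
Pola1, chrX:93632266-93632313, minus strand: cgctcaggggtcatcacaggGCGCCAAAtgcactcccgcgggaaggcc
Rfc3, chr5:151651209-151651238, minus strand: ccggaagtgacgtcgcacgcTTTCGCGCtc

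The window of Rrm2, the gene with the largest difference in fibroblasts, held none of these words. It held a CCAAT box, CCAAT on either strand, in capitals here. Such a box stood in the windows of 19 of the 34 genes (55.9%) and of 41.1% of all genes with a window.
Rrm2, chr12:24708184-24708228, plus strand: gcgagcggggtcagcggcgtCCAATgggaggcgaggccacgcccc

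Of the 42 genes, 31 reached the floor on all 6 arrays and 40 on at least 1. Pold1, the catalytic subunit of polymerase delta, and Tk1, the salvage thymidine kinase, stayed below it on every array. Negative control probe sets had medians of 6.2 to 6.71 and a 95th percentile of 10.2 to 10.74. On the CF arrays with Ccrl2+ secretome, Ccrl2- secretome and PBS their medians were 6.59, 6.71 and 6.69, above the floor. Reaching the floor is therefore no sign of detection there. Of the 42 members, 8 exceeded the 95th percentile for CF Ccrl2+ over PBS, and at most 12 in any comparison. Most members thus lie within the range of the controls. Fibroblast markers averaged 16.25, 16.06 and 16.29 on the CF arrays with Ccrl2+ secretome, Ccrl2- secretome and PBS, against 11.16, 11.72 and 10.61 on the CM arrays. Cardiomyocyte markers averaged 11.04, 9.55 and 9.71 on the CF arrays and 16.56, 16.45 and 16.63 on the CM arrays. Both cultures thus carried the markers of their labels, but Tnnt2 (17.03, 15.08 and 16.12) and Nppa (17.0, 15.89 and 16.1) were also high on the CF arrays.

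**Figure D1:**
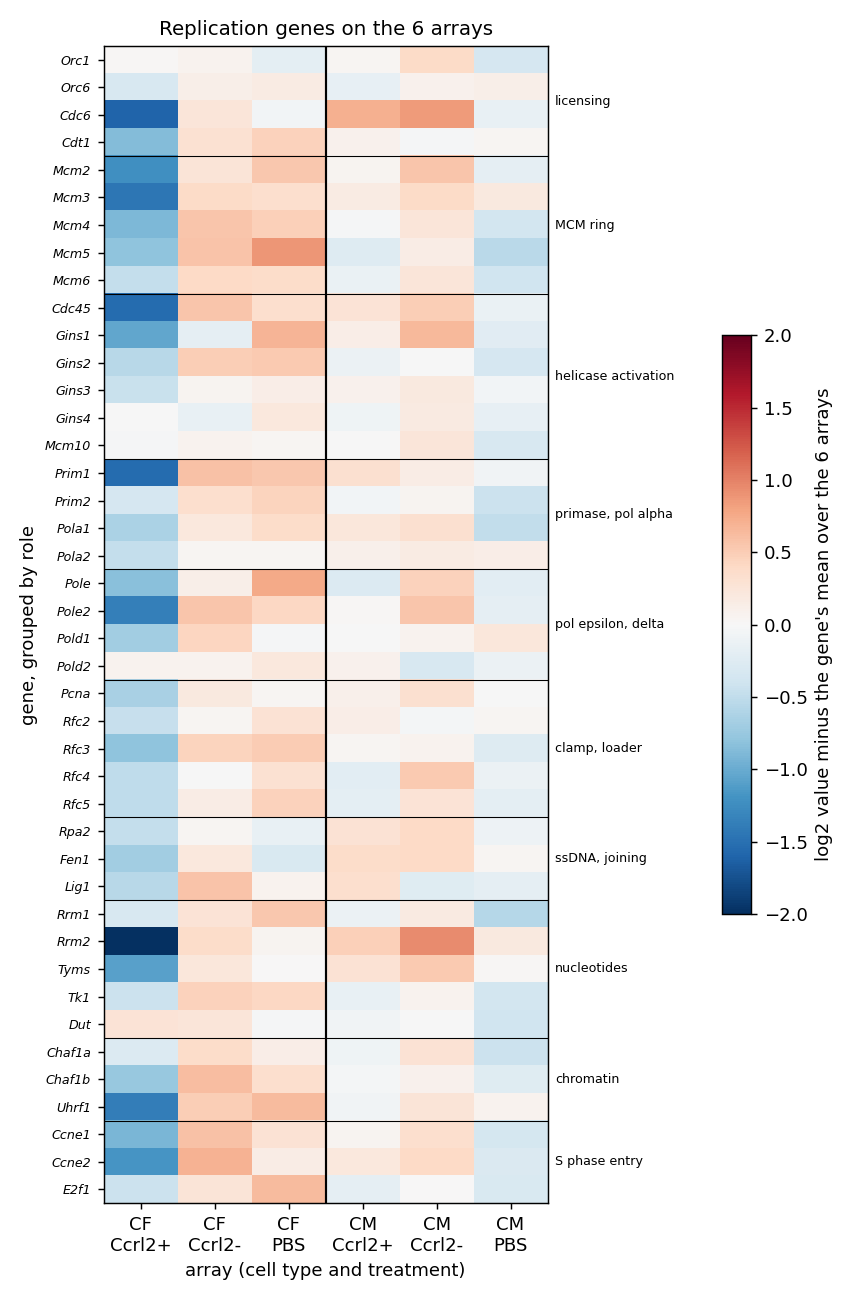
Colour gives the log2 value of each of the 42 genes minus its own mean over the 6 arrays, with genes in rows by role and arrays in columns. The fibroblast array with Ccrl2+ secretome is blue in most rows. It was the lowest CF array for 37 of the 40 genes that reached the floor on a CF array, and for 39.3% of all such genes.

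Fibroblasts with the Ccrl2+ secretome carried lower levels of the replication genes than fibroblasts in PBS. Of the 40 genes past the floor, 38 were lower by any size and 2 higher, where 55.3% of all 10042 genes were lower. At least 2-fold lower were 21 of the 40, against 6.13% of all genes, and 0 were at least 2-fold higher, against 4.87%. The median difference was -1.03 over the 40 genes and -0.07 over all genes. Among genes with both values past the floor, differences ranged from -2.1 for Rrm2 to 0.22 for Orc1. After dim values were lifted to the floor, 16 genes were at least 2-fold lower and the median was -0.8.

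Several control measures moved with this array. Poly-A spike-in transcripts were higher on it than on the PBS array in 4 of 4 cases, by a median of 0.605, and hybridisation spike-ins by a median of 0.305. Shifting each array to equal poly-A levels gave 32 genes at least 2-fold lower of 39 and a median of -1.64. That shift moves all genes of an array alike, and the floor was set anew after it. Before the shift the members' median relative to all genes was -0.96. Neither this nor the share of all genes at 2-fold was computed after the shift. Among negative control probe sets that reached the floor, 11.2% lay 2-fold or more lower and 8.52% higher. All 7 cardiomyocyte markers past the floor were higher, from 0.68 for Pln to 2.46 for Myoz2, and 3 of them at least 2-fold. Of 7 macrophage markers 5 were higher, and they averaged 10.88 against 10.52 in PBS. Of all 10042 genes, 4412 were higher and 4.87% at least 2-fold higher. The part of these markers' cells in the result was not tested. In whole cultures, fewer cells in S phase and less RNA per cell cannot be told apart.

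The MCM ring, which unwinds DNA ahead of the fork, had the largest group median, -1.69, and all 5 measured subunits were lower. Mcm3 lay at 8.61 with the Ccrl2+ secretome, 10.43 with the Ccrl2- secretome and 10.38 in PBS. Mcm2 lay at 8.94, 10.42 and 10.7 on the same arrays, and Mcm5 at 7.6, 8.97 and 9.29. Only the Ccrl2+ array stood low, and the other two CF arrays lay within 0.32 of each other for each subunit. Mcm4 was lower by a difference of -1.38 and Mcm6 by -0.84, the one subunit short of 2-fold.

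Among the factors that load the ring, Cdt1 lay at 7.86 with Ccrl2+ secretome, 9.03 with Ccrl2- secretome and 9.19 in PBS. Cdc6 lay at 5.63, 7.48 and 7.18. Its value with the Ccrl2+ secretome is below the floor, so it was lower than PBS by at least 0.63, counted down to the floor. That floor lies below the negative control medians of the CF arrays, so such sizes are not secured bounds. The origin recognition subunits did not share this. Orc6 differed by -0.48 and Orc1, close to the floor throughout, by 0.22.

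Factors that switch the helicase on were split. Cdc45, part of the active helicase, lay at 6.4 with Ccrl2+ secretome, 8.5 with Ccrl2- secretome and 8.28 in PBS, so it was at least 1.73 lower than PBS. Gins1 lay at 5.98, 6.84 and 7.7, at least 1.15 lower than PBS, and Gins2 at 6.5, 7.55 and 7.57, at least 1.02 lower. The remaining members differed less. Gins3 gave -0.58, Gins4 -0.23 and Mcm10, a scaffold of the starting fork, -0.06. The 4 GINS subunits form 1 complex.

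A similar split ran through the polymerases. Prim1, the catalytic primase subunit, lay at 8.97 with the Ccrl2+ secretome, 11.09 with the Ccrl2- secretome and 11.05 in PBS, a 4.23-fold lower value than PBS. Its partner Prim2 lay at 9.38, 10.05 and 10.17, and the polymerase alpha subunit Pola2 at 9.52, 10.05 and 10.05. Both were lower by less than 2-fold. Pola1, the catalytic subunit, was at least 0.28 lower (5.83 against 6.83 in PBS). Pole2, an accessory subunit of the leading strand polymerase epsilon, lay at 6.82, 8.74 and 8.6. Its catalytic partner Pole was at least 0.39 lower than PBS (5.35 against 6.94). Pold2, an accessory subunit of polymerase delta, stayed near its PBS level at 10.9 against 11.04.

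The sliding clamp gene Pcna lay at 14.18 with Ccrl2+ secretome, 15.01 with Ccrl2- secretome and 14.86 in PBS, a difference from PBS of -0.68. RefSeq lists 2 pseudogenes named after Pcna and 1 after Tyms, so these probes may also bind related sequence. The clamp loader subunits Rfc2 (-0.75), Rfc4 (-0.81) and Rfc5 (-0.97) were each lower by less than 2-fold, and Rfc3 by at least 0.29. All 5 genes of this group were lower, with a median of -0.81. The lagging strand group differed least. Its median was -0.39, with the single-strand binding subunit gene Rpa2 at -0.34, the flap nuclease gene Fen1 at -0.39 and the DNA ligase gene Lig1 at -0.63.

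Nucleotide supply genes differed by subunit. Rrm2, the small subunit of ribonucleotide reductase whose abundance limits the enzyme in S phase, lay at 9.17 with Ccrl2+ secretome, 11.57 with Ccrl2- secretome and 11.27 in PBS. This was 4.29-fold lower than PBS and the largest difference of all members. The large subunit gene Rrm1 lay at 12.79, 13.38 and 13.64, 1.8-fold lower than PBS. Tyms, which makes thymidylate, lay at 9.63, 10.94 and 10.72. Dut, which removes dUTP, lay close to the floor at 6.68, 6.65 and 6.39, at least 0.13 higher than PBS with the Ccrl2+ secretome.

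Chromatin and S phase entry genes were lower as well. Uhrf1, which guides DNA methylation to newly copied strands, lay at 8.8 with Ccrl2+ secretome, 10.68 with Ccrl2- secretome and 10.82 in PBS. Chaf1b, a subunit of the histone chaperone CAF-1, lay at 8.25, 9.62 and 9.35, while Chaf1a differed from PBS by -0.41. The cyclin E genes moved together. Ccne1 lay at 8.61, 10.11 and 9.8 and Ccne2 at 7.07, 8.95 and 8.4, and both were at least 2-fold lower with the Ccrl2+ secretome. E2f1, the activating transcription factor, lay at 5.88, 6.56 and 6.94, at least 0.39 lower than PBS.

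**Figure D2:**
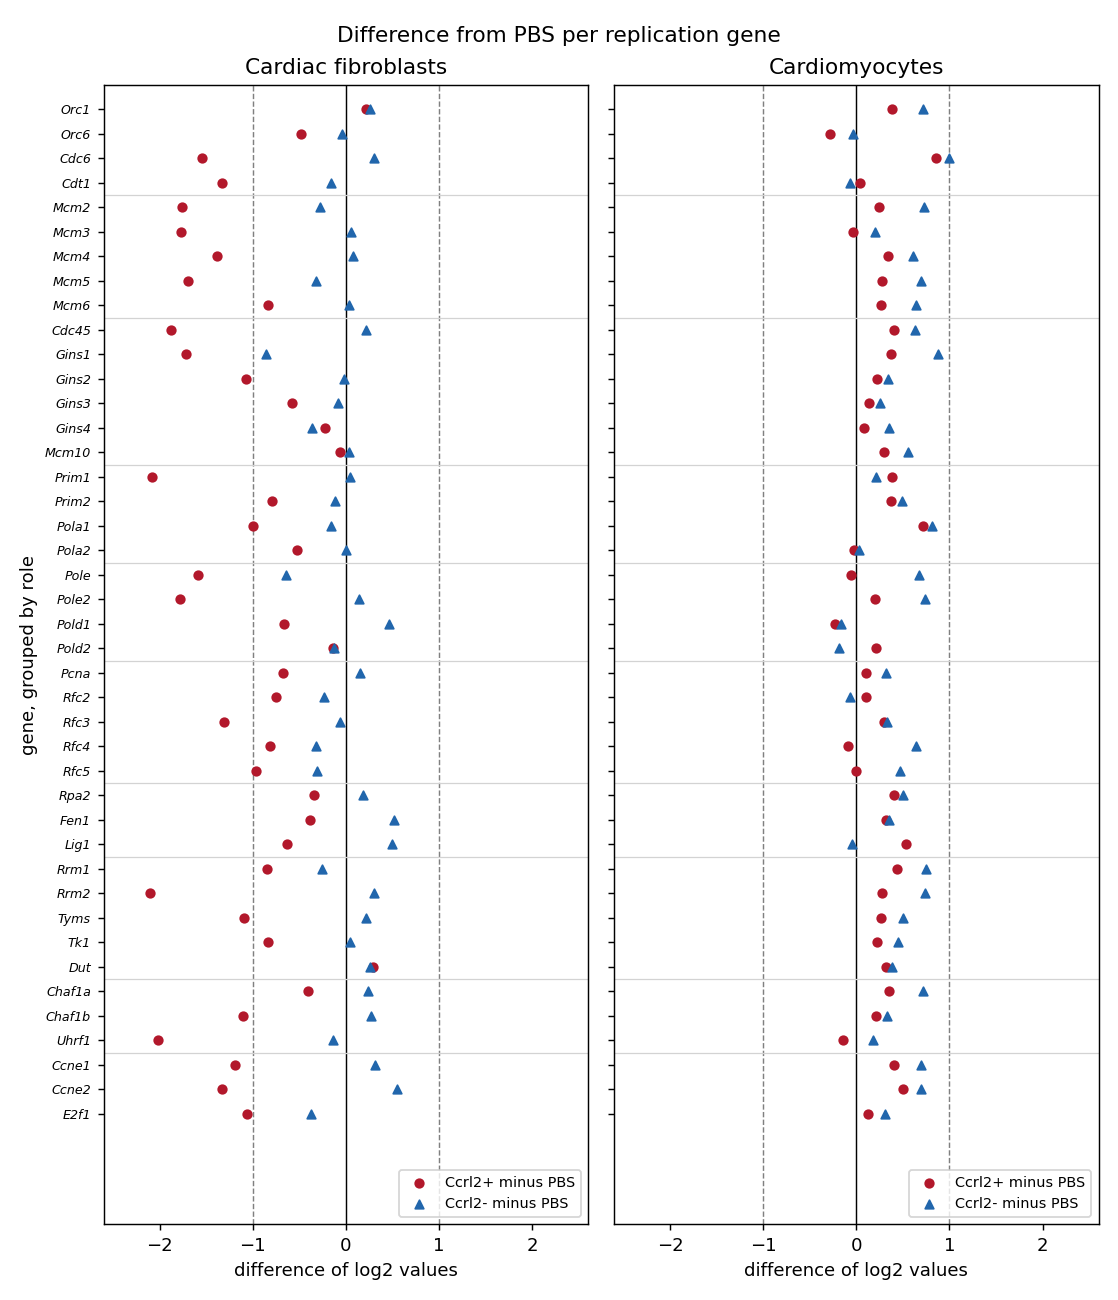
Each row is 1 of the 42 genes, and the x axis gives the difference of log2 values from PBS on the Ccrl2+ (circles) and Ccrl2- (triangles) arrays in fibroblasts (left) and cardiomyocytes (right), with dashed lines at 2-fold. Circles in fibroblasts lie left of 0 for all genes except Orc1 and Dut, while most symbols in cardiomyocytes lie right of 0.

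Of the members, 8 exceeded that 95th percentile on the Ccrl2+ or the PBS array of CF: Mcm6, Gins4, Prim1, Pold2, Pcna, Rrm1, Rrm2 and Uhrf1. Their median difference was -0.84, and 3 of them, Prim1, Rrm2 and Uhrf1, were at least 2-fold lower. Genes with an E2F word had a median of -1.32, and 8 of the 12 counted were at least 2-fold lower. Those with a window but no such word had a median of -0.83, with 8 of 20. Of all genes 6.13% were at least 2-fold lower. For CF Ccrl2- over PBS the medians with and without a word were -0.01 and 0.1. For CM over PBS they were 0.27 and 0.28 with Ccrl2+, and 0.64 and 0.5 with Ccrl2-. The differences between these medians were not tested.

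Fibroblasts with the Ccrl2- secretome kept the replication genes near their PBS level. At 2-fold, 0 of 40 genes were higher and 0 lower, against 6.18% and 4.83% of all 10057 genes. By any size, 20 were higher and 19 lower, where 57.8% of all genes were lower. The median difference was 0.01, against -0.09 over all genes, and the members ranged from -0.86 for Gins1 to 0.55 for Ccne2. The median was 0.34 after arrays were set to equal poly-A levels, since 4 of 4 poly-A transcripts were lower on this array than on the PBS array, by a median of -0.31.

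Within this narrow range the lagging strand genes stood on the high side, with Fen1 at 8.53 against 8.01 in PBS, Lig1 at 8.05 against 7.56 and Rpa2 at 7.99 against 7.81. Cyclin E genes did too, Ccne2 at 8.95 against 8.4 and Ccne1 at 10.11 against 9.8. Clamp loader genes lay on the low side, with a difference of -0.32 for Rfc4 and -0.31 for Rfc5. Gins1 at 6.84 against 7.7 gave the lowest value. None of these differences has a replicate check.

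Set directly against the Ccrl2- array, the Ccrl2+ array of fibroblasts was lower for 37 of 39 genes past the floor, where 50.0% of all 10144 genes were lower. At least 2-fold lower were 18 of the 39, against 10.1% of all genes, and 0 were at least 2-fold higher, against 8.55%. The median was -0.87, against 0.0 over all genes. Poly-A transcripts were higher in 4 of 4 cases, by a median of 0.89. Equal poly-A levels gave 36 of 41 genes at least 2-fold lower and a median of -1.77. The 7 counted cardiomyocyte markers were each higher by 2-fold or more, with a median of 1.48, and their part in the result was not tested. Rrm2 had the largest difference at -2.4, followed by Prim1 at -2.12 and Cdc45 at -2.1, the last at least 1.95 lower. Ccne2 differed by -1.88 and Fen1 by -0.91. Gins4 (0.13) and Dut (0.03) were the members not lower. This comparison shares the Ccrl2+ array with the comparison against PBS.

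**Figure D3:**
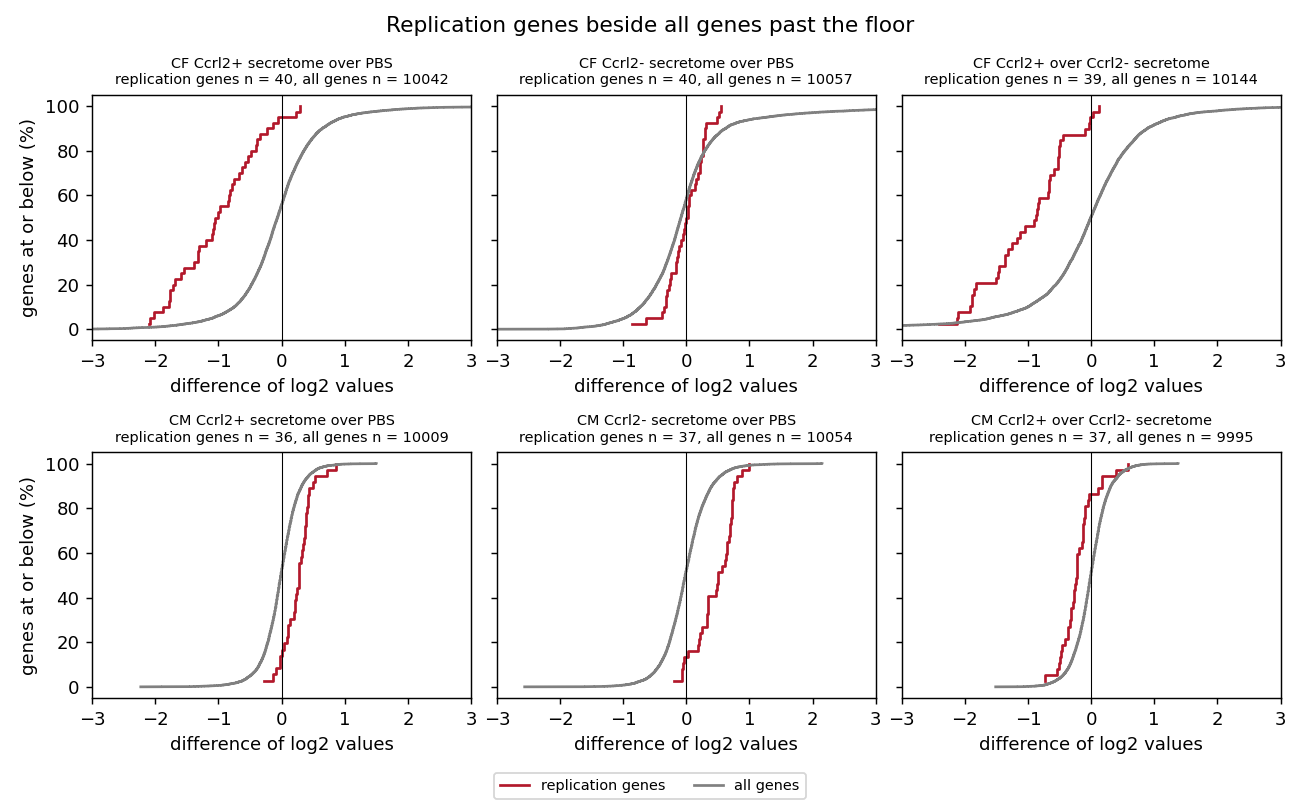
Each panel gives, for 1 comparison, the percentage of genes (y axis) whose difference of log2 values is at or below the x value, for replication genes and for all genes past the floor; all-gene values beyond -3 or 3 are cut off. The replication curve lies left of all genes in the fibroblast panels with the Ccrl2+ array on top, near them for Ccrl2- over PBS, and right of them in cardiomyocytes against PBS.

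Cardiomyocyte cultures differed the other way and by less. With the Ccrl2+ secretome, 30 of 36 genes past the floor were higher than in PBS, where 47.0% of all 10009 genes were higher. None reached 2-fold in either direction, against 0.21% of all genes higher and 0.629% lower. The median was 0.28 over the members and -0.01 over all genes. After arrays were set to equal poly-A levels, the median was 0.01, with 19 genes higher and 16 lower. All genes of an array move alike in that shift. Relative to all genes the median was 0.29 before the shift and was not computed after it.

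With the Ccrl2- secretome, 32 of 37 genes in cardiomyocytes were higher than in PBS, where 47.1% of all 10054 genes were higher. The median was 0.5, against -0.02 over all genes. One gene, Cdc6, reached 2-fold, against 0.746% of all genes at least 2-fold higher, and 0 genes were lower by as much, against 0.786%. Its difference of 1.0 lay at the threshold, and 0 genes reached 2-fold after quantile normalization. Cdc6 lay at 7.95 with the Ccrl2+ secretome, 8.09 with the Ccrl2- secretome and 7.09 in PBS. Of the 37 genes past the floor on a CM array, 31 (83.8%) were highest with the Ccrl2- secretome and 26 (70.3%) lowest in PBS. Among all genes either share was 33.6%.

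Members of several roles showed this order. Mcm2 lay at 10.22 with the Ccrl2+ secretome, 10.71 with the Ccrl2- secretome and 9.98 in PBS. Mcm5 lay at 8.15, 8.56 and 7.87, and Mcm6 at 11.32, 11.69 and 11.05. The ring subunits thus ranged from -0.03 to 0.34 above PBS with the Ccrl2+ secretome and from 0.2 to 0.73 with the Ccrl2- secretome. Rrm2 lay at 11.69, 12.15 and 11.41, and Rrm1 at 12.98, 13.29 and 12.54. The largest supply difference was thus that of Rrm1 with the Ccrl2- secretome, 0.75. Gins1 lay at 7.16, 7.67 and 6.79, Cdc45 at 8.22, 8.44 and 7.81, and Ccne1 at 9.57, 9.86 and 9.16. Uhrf1, at 10.12, 10.44 and 10.26, passed PBS with the Ccrl2- secretome alone. For each of these genes but Uhrf1, PBS was the lowest and the Ccrl2- secretome the highest of the CM arrays.

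Some members did not follow. Prim1 was highest with the Ccrl2+ secretome (10.82, against 10.65 with the Ccrl2- secretome and 10.44 in PBS). Lig1 was high with the Ccrl2+ secretome alone, at 7.83, against 7.25 with the Ccrl2- secretome and 7.3 in PBS. Orc6 (9.64, 9.88 and 9.92) was not above PBS on either secretome array, and Cdt1 (8.81, 8.7 and 8.77) and Pola2 (10.11, 10.16 and 10.13) stayed within 0.11.

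Between the secretomes, 32 of 37 genes in cardiomyocytes were lower with Ccrl2+, where 49.8% of all 9995 genes were lower. The median was -0.23, against 0.0 over all genes. At 2-fold, 0 genes were lower and 0 higher, against 0.18% and 0.13% of all genes. Pole and Rfc4 had the lowest difference, -0.73 each, and Lig1 the highest, 0.58. For Pole the value with Ccrl2+ (5.92) was below the floor and that with Ccrl2- was 6.65, so only a difference of at least 0.1 was measured. The comparison shares its arrays with those against PBS.

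Fibroblast markers moved with the members on the CM arrays. Of the 7 measured markers, 6 were higher with the Ccrl2+ secretome and 7 with the Ccrl2- secretome than in PBS, and 4 at least 2-fold with Ccrl2-. Of all genes, 47.0% were higher with Ccrl2+ and 47.1% with Ccrl2-, and 0.746% at least 2-fold with Ccrl2-. The fibroblast markers averaged 11.16 with the Ccrl2+ secretome, 11.72 with the Ccrl2- secretome and 10.61 in PBS. Col3a1 lay at 9.77, 10.93 and 8.78, and Col1a2 at 11.58, 12.28 and 10.91, the same order as most replication genes. Cardiomyocyte markers averaged 16.56, 16.45 and 16.63, and 5 of 8 were lower with Ccrl2+ and 7 of 8 with Ccrl2- than in PBS. Their median differences were small, -0.05 and -0.15. Of all genes, 5121 of 10009 were lower with Ccrl2+ and 5196 of 10054 with Ccrl2-. Macrophage markers averaged 9.66 and 9.97 with the secretomes against 10.25 in PBS, and endothelial markers 12.63 and 12.69 against 12.67. The part of these cells in the result was not tested, and more dividing non-muscle cells and more replication transcripts per cardiomyocyte cannot be told apart here.

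**Figure D4:**
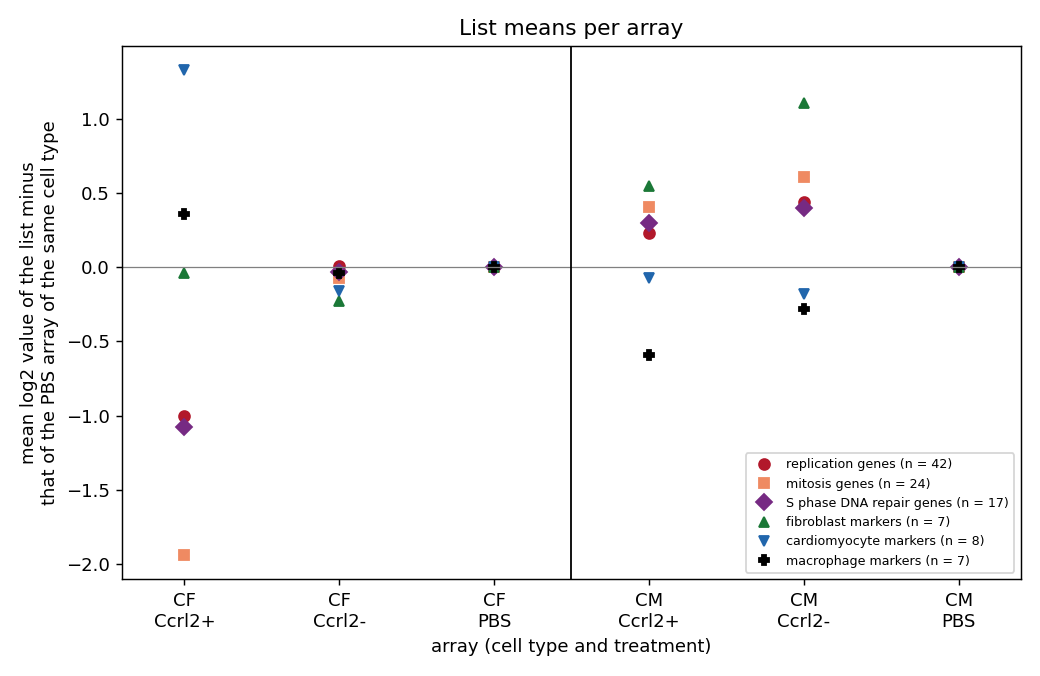
Points give the mean log2 value of each gene list on an array minus its mean on the PBS array of the same cell type, so PBS points lie at 0. Replication, repair and mitosis genes lie below 0 on the CF Ccrl2+ array, mitosis genes the lowest. Cardiomyocyte and macrophage markers lie above 0 on that array. On the CM secretome arrays the replication, repair and mitosis genes lie above 0, as do the fibroblast markers.

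In PBS, most replication genes had higher values in fibroblasts than in cardiomyocytes, and so did the negative controls by their median. Of 39 genes past the floor, 34 were higher in CF, where 50.2% of all 10394 genes were higher. The median difference was 0.47, against 0.01 over all genes and 0.55 over the negative control probe sets. Of these controls 25.8% lay 2-fold or more higher and 4.87% lower, and their part in the result was not tested. At least 2-fold higher were Mcm5 (9.29 in CF against 7.87 in CM) and Rrm1 (13.64 against 12.54), 2 genes where 13.9% of all genes passed, and 0 were lower by as much, against 16.9%. Rrm2 (11.27 in CF against 11.41 in CM), Tyms (10.72 against 10.73), Pcna (14.86 against 14.82) and Orc6 (9.96 against 9.92) were close. Fen1 was lower in CF (8.01 against 8.36). Markers of other cells were present on the CM PBS array. The fibroblast genes Col3a1 and Dcn lay at 8.78 and 15.34, and the endothelial genes Emcn, Cdh5 and Pecam1 at 16.25, 15.57 and 13.87. Of 7 endothelial markers 6 were at least 2-fold lower in CF than in CM, with a median of -5.15, and their part in the result was not tested.

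Other genes of DNA replication included some that were lower in fibroblasts with the Ccrl2+ secretome. Of 27 fork and checkpoint genes outside the list, 7 were at least 2-fold lower than in PBS and 0 higher, with a median of -0.41, where 6.13% of all genes were lower and 4.87% higher by as much. The largest were Ticrr, which helps fire origins (at least 1.64 lower, 6.12 against 8.19), and Top2a, the topoisomerase that untangles copied DNA (8.65 against 10.3). Dbf4, the activator of the origin-firing kinase, lay at 8.22 against 9.29, Pole4 at 10.49 against 11.75, and Clspn was at least 0.14 lower. In CM with the Ccrl2- secretome the list's median was 0.17, against -0.02 over all genes. Of its 27 counted genes 1 was at least 2-fold higher, against 0.746% of all genes. This was Top2a, at 9.6 against 8.58 in PBS.

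Nucleotide synthesis genes outside the list included a few that differed between the fibroblast arrays. With the Ccrl2+ secretome, 3 of the 21 counted were at least 2-fold lower than in PBS (median -0.54), where 6.13% of all genes were. With the Ccrl2- secretome 1 of 21 was at least 2-fold higher (median 0.16), a share near the 6.18% of all genes. Shmt2, which supplies one-carbon units in mitochondria, lay at 11.3 with the Ccrl2+ secretome, 13.51 with the Ccrl2- secretome and 12.44 in PBS. Ctps, the cytidine triphosphate synthase gene, lay at 11.52, 13.3 and 12.42. Both lay below PBS with the Ccrl2+ secretome and above it with the Ccrl2- secretome. Mthfd2 lay at 10.75, 12.74 and 12.58, Umps at 8.78, 9.5 and 10.25, and Ppat at 6.49, 7.74 and 7.22.

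Regulators of S phase entry were next. With the Ccrl2+ secretome, 6 of 22 counted genes were at least 2-fold lower than in PBS and 1 was higher, with a median of -0.53. Of all genes 6.13% were lower and 4.87% higher by as much, so the 1 higher gene is near the share of all genes. Ccna2, the S phase cyclin, lay at 8.83 against 11.72. The repressor E2f7 was at least 1.65 lower (6.34 against 8.2) and Mybl2 at least 0.64 lower (5.78 against 7.19). Tfdp2, a dimer partner of E2F proteins, was higher, at 12.77 against 11.58. Myc, a growth-promoting transcription factor, lay at 11.66 with Ccrl2+ secretome, 13.56 with Ccrl2- secretome and 12.27 in PBS.

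CDK inhibitors, which hold back cyclin kinases, did not move together. Cdkn1c (p57) lay at 7.94 with the Ccrl2+ secretome, 4.98 with the Ccrl2- secretome and 5.6 in PBS, at least 1.39 higher than PBS with Ccrl2+. Cdkn2c lay at 7.29, 8.16 and 8.92, 3.1-fold lower with Ccrl2+ than in PBS. Cdkn1a (p21) lay at 14.25, 15.29 and 14.65, Cdkn1b (p27) at 12.47, 11.86 and 12.32, and Cdkn2d at 8.63, 9.64 and 9.28. Cdkn2a and Cdkn2b stayed below the floor on every array. On the CM arrays Cdkn1a lay at 15.93 with Ccrl2+ secretome, 15.76 with Ccrl2- secretome and 16.37 in PBS, where PBS was the highest.

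S phase DNA repair genes and mitosis genes were lower in CF with the Ccrl2+ secretome as well, mitosis genes by a larger median. In fibroblasts with the Ccrl2+ secretome, 10 of 16 S phase DNA repair genes were at least 2-fold lower than in PBS (median -1.14), and so were 22 of 24 mitosis genes (median -1.94) and 6.13% of all genes. Mki67, a marker of cycling cells, lay at 12.26 with the Ccrl2+ secretome, 14.1 with the Ccrl2- secretome and 14.19 in PBS. The nuclease gene Exo1 was at least 1.06 lower than PBS and Fancd2 at least 0.85 lower. In CM, Mki67 lay at 13.37 with Ccrl2+ secretome, 13.69 with Ccrl2- secretome and 12.83 in PBS. The medians of both lists in CM were above 0 with either secretome, at 0.3 and 0.37 for repair genes and 0.47 and 0.67 for mitosis genes with Ccrl2+ and Ccrl2-. The difference between the replication and mitosis medians was not tested.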

How the data were processed

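Expression was measured in 6 groups of 1 Affymetrix array each, from biotin-labelled total RNA (1 to 8 ug, per the labels' protocols). The authors deposited log2 probe set values. The submitters' processing notes name Affymetrix Expression Console. Its algorithm and version, and the genome build, are not given in these sources. The log2 scale was read from the values. Sorted values of the arrays nearly coincide (mean gap 0.09 between the highest and the lowest array), so a shift shared by most genes cannot be read from them. Of 28846 probe sets, 19572 carried 1 symbol; the highest-mean probe set was kept for 55 symbols with several, leaving 19505 genes.

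Differences of log2 values were taken between pairs of arrays in 7 comparisons. A gene was called at 2-fold where the higher value reached the floor of 6.55. If the lower of both values was under the floor, the distance from the higher value to the floor is given as "at least". On the CF arrays the floor lies below the negative control medians, so these sizes are distances to the floor and not secured bounds. Medians and counts stand beside the same over all genes, and no p-value was computed. The precision is limited by 1 array per group. Other settings tried were 1.5- and 3-fold thresholds, dropping the floor, setting it at the 75th percentile (10.14), raising values to it, quantile normalization, a loess trend removed (span 0.4), equal poly-A spike-in medians, and the mean of probe sets.

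The members, gene lists, marker lists and role groups were chosen with earlier results of these data known. All members could be named. Of each other list, up to 5 genes with the largest difference in the secretome comparisons were named, and all CDK inhibitors and Mki67. Promoter sequences are from RefSeq (GRCm38.p6). Protein motifs were planned but not searched. Counting was tested on simulated differences. Tables were computed in Python 3.11.15 with pandas 2.3.3 and numpy 2.4.6, loess in statsmodels 0.14.6 and figures in matplotlib 3.10.9.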

Additional observations from a re-analysis of the deposited data

Results flagged for a closer look

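The members' median for the Ccrl2+ secretome over PBS had opposite signs in the cultures, -1.03 in fibroblasts and 0.28 in cardiomyocytes, a difference of -1.31. The difference was not tested, since each group had 1 array. After arrays were set to equal poly-A levels, the fibroblast value was -1.64 and the cardiomyocyte value 0.01. That shift moves all genes of an array alike. Relative to all genes the medians were -0.96 and 0.29 before the shift and were not computed after it.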

How the results depend on the processing

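No paired analysis was possible because each group had 1 array. The counts of genes are given in the direction most members took. They are out of 36 to 40 members past the floor at the 1.5- and 3-fold thresholds, and 35 to 41 at equal poly-A levels. Shares of all genes were not computed under these other settings, so the counts cannot be set against them. With a 1.5-fold threshold the counts were 28 lower for CF Ccrl2+ over Ccrl2-, 2 lower for CF Ccrl2- over PBS, 2 higher for CM Ccrl2+ over PBS, 17 higher for CM Ccrl2- over PBS, 2 lower for CM Ccrl2+ over Ccrl2- and 17 higher for CF over CM. With a 3-fold threshold they were 10 for CF Ccrl2+ over PBS, 8 for CF Ccrl2+ over Ccrl2-, 0 for CM Ccrl2- over PBS and 0 for CF over CM. With the floor at the 75th percentile, which leaves 11 to 14 members, they were 7, 7, 0 and 1 in the same order, and the median of CF Ccrl2+ over Ccrl2- was -1.39. Quantile normalization left 0 genes for CM Ccrl2- over PBS, where Cdc6 stood at the threshold. Equal poly-A levels gave 32 for CF Ccrl2+ over PBS (median -1.64), 36 for CF Ccrl2+ over Ccrl2- (-1.77), 2 for CM Ccrl2- over PBS (0.62), 2 for CM Ccrl2+ over Ccrl2- (-0.61) and 5 for CF over CM (0.58), with medians of 0.34 for CF Ccrl2- over PBS and 0.01 for CM Ccrl2+ over PBS. The loess trend gave a median of 0.12 for CF Ccrl2- over PBS, and raising values to the floor gave -0.8 for CF Ccrl2+ over PBS. The other settings listed under processing moved no median by over 0.1 and no count by over 1.5 times. One median changed sign, that of CF Ccrl2- over PBS, 0.01 in the report and -0.04 with the floor at the 75th percentile. Members dimmer than the brighter negative controls limit the small differences, and the cause of none of these shifts was tested.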

Other observations

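The promoter windows of replication and mitosis genes differed in the words they held. An E2F word stood in 13 of 34 replication genes with a window (38.2%), 1 of 22 mitosis genes (4.55%) and 2.6% of all genes with a window. The cell cycle homology words TTTGAA and TTCGAA, on either strand, stood in 6 of 34 replication genes (17.6%), 18 of 22 mitosis genes (81.8%) and 21.7% of all genes with a window. A CCAAT box stood in 18 of the 22 mitosis genes (81.8%), 55.9% of the replication genes and 41.1% of all genes with a window. These are counts of letters, with no test.

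Split at the median of their mean level over the 6 arrays (8.36), the brighter 21 members had a median of -1.09 in CF with the Ccrl2+ secretome against PBS. The 19 dimmer members past the floor had a median of -1.0. At least 2-fold lower were 11 of the brighter and 10 of the dimmer genes, against 6.13% of all genes. Several of these dimmer genes, Cdc6 and Cdc45 among them, had Ccrl2+ values under the floor. The split level lies below the negative controls' 95th percentile of 10.67 on the CF Ccrl2+ array. Both parts therefore hold members within the range of the controls, and a dependence on level was not tested.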
